A study of Mus musculus with 4 samples.

Results

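Collagens, laminins and integrins are encoded by 81 protein-coding genes in the deposited count tables, 43 for collagen chains, 11 for laminin chains and 27 for integrin subunits. They were chosen by name alone, as genes called Col with an a-chain number, Lama, Lamb or Lamc with a number, or Itga or Itgb with a number or letter, out of 37620 gene identifiers. No measured value entered this rule, although the set was chosen with earlier results of these data known. A gene for another collagen, Col26a1, carries an older name in the annotation used here and was not matched.

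Of the study's RNA-seq, 4 samples are analysed here, 1 for each condition. Of these, 3 were R1 cells, a line of mouse embryonic stem cells (mESCs) kept without feeder cells in serum-containing medium, and all 3 received the GSK3 inhibitor CHIR99021 (3 µM) and the MEK inhibitor PD0325901 (1 µM), together called 2i, for 2 days. The 2i−L sample had 2i and no LIF, the cytokine that otherwise supports mESC self-renewal. The 2iJ sample also had a JAK inhibitor (2 µM), and the 2iJ+B−A sample had, in addition to 2iJ, BMP4 (10 ng/ml) and ALK5 inhibitor II (10 µM), which blocks Activin signaling. The 4th sample was F4, a single line of trophoblast stem cells (TSCs), the stem cells of the placental lineage, grown in its own medium and labelled day 2. TSCs therefore differ from the mESCs in line, lineage and medium at once, and these cannot be told apart.

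These genes make the sheet on which epithelial cells sit and the receptors that hold the cells to it. Type IV collagen chains trimerize inside the cell and form a network in the basement membrane, and laminins, each built of an alpha, a beta and a gamma chain, polymerize beside it. Integrins pair an alpha with a beta chain at the cell surface. The α3, α6 and α7 chains with β1 bind laminin, α5β1 and the αv integrins bind fibronectin, vitronectin and related proteins, and α1β1 binds collagen, including type IV. In the mouse embryo, trophoblast and parietal endoderm border a thick basement membrane, and laminins with the γ1 chain are needed around implantation for the first basement membranes.

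Counts on genes came to between 33913984 and 36964392 per sample, 82.2% to 83.6% of the listed read pairs. Levels are CPM, counts scaled to a common library size, and a floor of 3 counts, used to bound the ratio of a gene at 0, equals 0.0799 to 0.0902 CPM. Levels of different genes are compared per kilobase (kb) of exon, with the exons of all annotated transcripts of a gene joined. Ratios between genes depend on that length, and their intervals cover counting error only. The joined length was 10744 bases for Itgav, 9025 for Itga6 and 9917 for Lamb1. Their longest coding transcripts had 7054, 4310 and 5784 bases. Log2 ratios between samples were taken after adding 0.5 CPM, so they understate changes of low genes. A gene was counted as higher or lower in a sample when its log2 ratio was at least 1 in size, a 2-fold difference. With 1 sample per condition no test between conditions exists, no p-value is given, and the 95% Clopper–Pearson intervals beside the ratios cover counting error only. The sample labels were checked on marker genes. Pou5f1 was 899 CPM in 2i−L, 885 with 2iJ, 658 with 2iJ+B−A and 1.34 in TSCs, and Elf5, which marks TSCs, was 0.0301 CPM in 2i−L, 0.0582 with 2iJ, 0.133 with 2iJ+B−A and 298 in TSCs. In bulk RNA, fewer cells of a type and less RNA per cell cannot be told apart.

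Of the 81 genes, 61 reached 1 CPM in at least 1 sample and were compared, 32 collagens, 9 laminins and 20 integrins. The other 20 stayed below 1 CPM everywhere, namely Col4a3, Col4a4 and Col4a6, the type IV chains of specialized basement membranes, Lama2 of muscle laminin and Lamc3, the integrins Itga2, Itga11, Itgad, Itgax, Itgb2l, Itgb6 and Itgb8, and Col6a3, Col6a6, Col10a1, Col14a1, Col15a1, Col19a1, Col24a1 and Col28a1. Itgax and Itgb2l had 0 counts in all 4 samples. TSCs had 41 members at 1 CPM or more, compared with 49 in 2i−L, 52 with 2iJ and 51 with 2iJ+B−A, but 12 members at 100 CPM or more, compared with 5, 6 and 8. Of all compared genes, 88.3% in TSCs and 89.6%, 90.6% and 91.4% in these mESC samples were at 1 CPM or more, and between 16.4% and 16.8% in each of the 4 samples at 100 CPM or more. TSCs had 0 counts for 14 members and 2i−L for 10.

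Between 2iJ and 2i−L, 5 members were higher in 2iJ (Col2a1, Col5a2, Col8a1, Col9a1 and Itga1) and 0 lower, while 1.23% of all 14263 compared genes were higher and 0.918% lower. In 0 of these 5 did the nearer bound of the counting interval reach a log2 ratio of 1. Between 2iJ+B−A and 2iJ, 5 members were higher in 2iJ+B−A (Col4a1, Col4a2, Col5a1, Itga3 and Itga4) and 6 lower (Col1a1, Col6a5, Col8a1, Col9a2, Col11a1 and Lama3), against 5.81% and 3.17% of all genes. TSCs had 22 members higher and 21 lower than 2iJ, against 19.4% and 17.6% of all genes. Of the 32 collagens 11 were higher and 13 lower, of the 9 laminins 3 and 3, and of the 20 integrins 8 and 5. Against 2iJ+B−A, TSCs had 21 members higher and 21 lower, with 16.4% and 16.2% among all genes. The median log2 ratio over the 61 members was 0.25, 0.03, −0.19 and 0.39 in these comparisons, in that order, beside 0.00 over all genes in each. The sets went both ways at once in TSCs, so their medians stayed small although 43 of 61 genes passed the 2-fold mark against 2iJ. These comparisons share samples, so their counts are not independent of each other. Changes of the 2iJ sample itself enter those that use it as reference: with 2i−L in its place, 10 members were higher and 4 lower in 2iJ+B−A, Itga3 was no longer among the higher ones, and Col12a1, Col2a1, Col6a1, Itga1, Itga8 and Lama5 were added. Col6a5, Col11a1 and Lama3 were no longer among the lower ones, and Itgal was added. No share over all genes is given for 2iJ+B−A against 2i−L, so these counts describe the calls only.

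**Figure D1:**
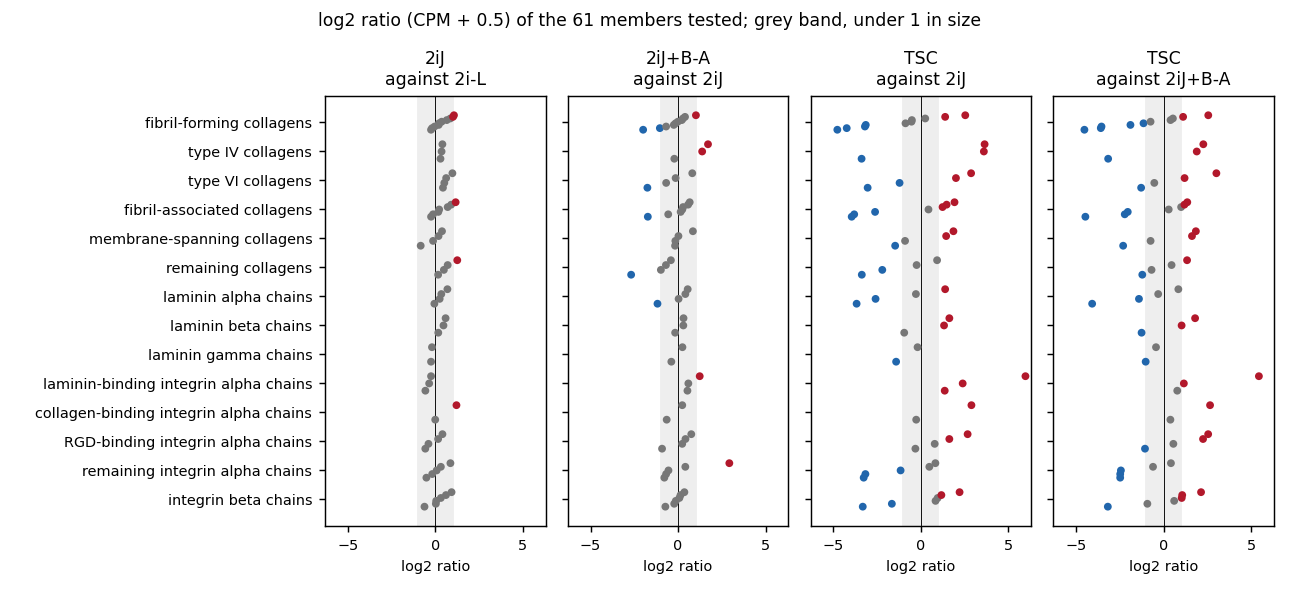
Log2 ratio of each of the 61 compared genes in the 4 comparisons, by class, with 1 point per gene. Red points are at 1 or above, blue points at −1 or below, and the grey band holds ratios under 1 in size. In both TSC panels members lie on both sides, and all 3 laminin-binding integrin alpha chains lie to the right of 0.

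The main type IV collagen genes were higher in 2iJ+B−A and far higher in TSCs. Col4a1 and Col4a2 encode the α1 and α2 chains that trimerize into the type IV collagen of nearly all basement membranes. Col4a1 was 68.6 CPM in 2i−L, 87.8 with 2iJ, 228 with 2iJ+B−A and 1099 in TSCs, and Col4a2 was 34.9 CPM in 2i−L, 46.3 with 2iJ, 152 with 2iJ+B−A and 565 in TSCs. Summed over the type IV chains, the level was 17.2 CPM per kb in 2i−L, 22.2 with 2iJ, 58.4 with 2iJ+B−A and 247 in TSCs. Both genes had the same order of samples, with TSCs highest, 2iJ+B−A between them and the other mESCs, and 2i−L lowest. The log2 ratio for 2iJ+B−A over 2iJ was 1.37 (interval 1.31 to 1.43) for Col4a1 and 1.71 (interval 1.63 to 1.79) for Col4a2. TSCs exceeded 2iJ by 3.64 (interval 3.58 to 3.69) and 3.60 (interval 3.52 to 3.67) on the same scale, and 2iJ+B−A by 2.26 and 1.89. The 14 markers of parietal and primitive endoderm, cells that secrete type IV collagen and laminin, summed to 58.7 CPM in 2i−L, 138 with 2iJ, 228 with 2iJ+B−A and 67.5 in TSCs. Without Lrp2, the highest of them in mESCs, left out after its values were seen, the remaining 13 summed to 13.0, 23.1, 54.1 and 64.4 CPM. Only without Lrp2 did the sums have the sample order of Col4a1 and Col4a2, so that likeness rests on a choice made from the values. Of the 11 endoderm markers compared, 5 were higher and 0 lower in 2iJ+B−A than in 2iJ (all genes, 5.81% and 3.17%). In TSCs, 5 were higher (Foxa2, Foxq1, Gata4, Gata6 and Thbd) and 2 lower (Cubn and Lrp2) than in 2iJ (all genes, 19.4% and 17.6%). The part of these markers in the levels of type IV collagen was not tested. In TSCs, Col4a1 was the highest member per length and stood at percentile 98.0 of the 14251 compared genes with an exon length.

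Col4a1 and Col4a2 lie head to head on chromosome 8 of NCBIM37 (minus strand, 11198423 to 11312826, and plus strand, 11312805 to 11449287), and their annotated starts overlap by 22 bases. The other type IV genes are paired in the same way with wider spacing, Col4a4 and Col4a3 with 71 bases between them on chromosome 1 and Col4a6 and Col4a5 with 1308 bases on chromosome X. Per kb of exon, Col4a1 stood at 1.91 times Col4a2 in 2i−L, 1.84 with 2iJ, 1.46 with 2iJ+B−A and 1.89 in TSCs. The trimer holds the chains at 2 to 1. The lowest value, in 2iJ+B−A, had a counting interval of 1.41 to 1.51, which does not reach those of the other 3 samples. Col4a5, which encodes the α5 chain, went the other way in TSCs. It was 12.3 CPM in 2i−L, 15.1 with 2iJ, 13.0 with 2iJ+B−A and 0.997 in TSCs, a log2 ratio of TSCs to 2iJ of −3.39 (interval −3.73 to −3.03), whereas the 3 mESC samples differed little.

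Col18a1 encodes a basement membrane collagen that carries heparan sulfate and whose end fragment is endostatin. It was 342 CPM in 2i−L, 558 with 2iJ, 282 with 2iJ+B−A and 121 in TSCs. It was the highest of the 81 genes per length in 2iJ, and the 2iJ+B−A and 2i−L samples lay near each other, below 2iJ. The log2 ratio for 2iJ+B−A over 2iJ, −0.98 (interval −1.02 to −0.95), was just short of the 2-fold mark, and that of TSCs to 2iJ was −2.20 (interval −2.25 to −2.16).

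**Figure D2:**
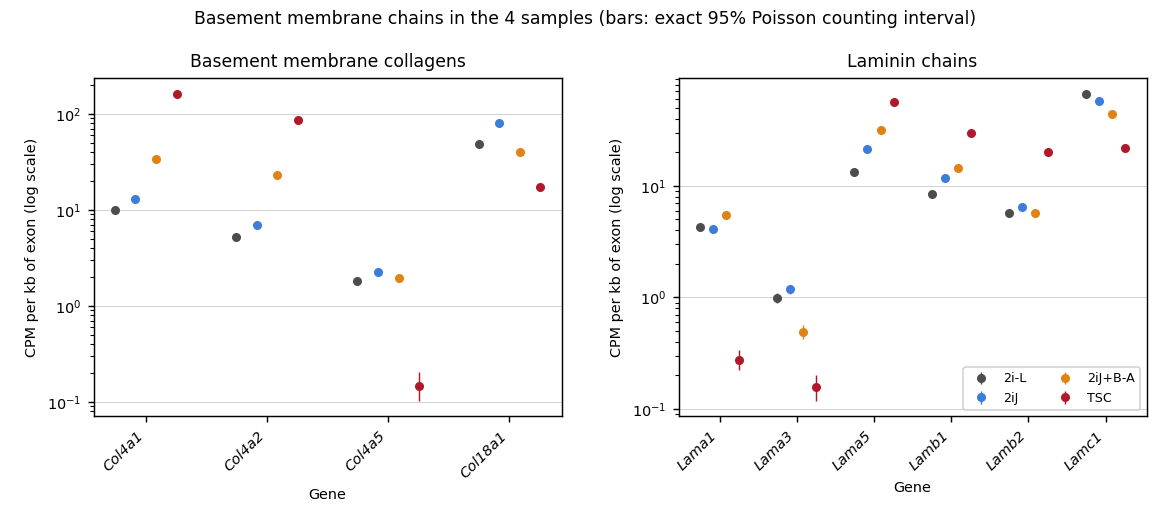
Level per kb of exon (log scale) of basement membrane collagens (left) and laminin chains (right) in the 4 samples, with exact 95% Poisson intervals that are often smaller than the points. Col4a1, Col4a2, Lama5 and Lamb1 are highest in TSCs, and Col4a5, Col18a1, Lama1 and Lamc1 are lowest there.

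The fibril-forming collagens, which build the fibers of connective tissue, were low in all samples, together 10.7 CPM per kb in 2i−L, 13.6 with 2iJ, 14.2 with 2iJ+B−A and 6.94 in TSCs. Of 10 compared, 4 were lower and 2 higher in TSCs than in 2iJ (all genes, 17.6% and 19.4%). The 15 fibroblast and feeder cell markers summed to 129 CPM in 2i−L, 256 with 2iJ, 419 with 2iJ+B−A and 21.5 in TSCs, lowest in TSCs like the sum of these collagens. Not each of these collagens was lowest there, since Col5a3, Col11a2 and Col27a1 were highest in TSCs. The marker sums with 2iJ and 2iJ+B−A were mostly Acta2. Of the 10 markers compared, 1 was higher (Twist1) and 3 lower (Acta2, Postn and Tagln) in TSCs than in 2iJ. In 2iJ+B−A, 4 were higher and 0 lower than in 2iJ (all genes, 5.81% and 3.17%). The part of the markers was not tested. Col1a1, the α1 chain of type I collagen, was 21.5 CPM in 2i−L, 18.8 with 2iJ, 4.34 with 2iJ+B−A and 1.68 in TSCs, with a log2 ratio for 2iJ+B−A over 2iJ of −2.00 (interval −2.23 to −1.77). Its partner Col1a2 was 9.20 CPM in 2i−L, 8.91 with 2iJ, 5.35 with 2iJ+B−A and 0 in TSCs. Both chains of type I collagen were lowest in TSCs, where Col1a2 had 0 counts and was at least 104-fold lower than in 2iJ, taking 3 counts as the limit. In 2iJ+B−A they were not lowered alike, since Col1a2 had a log2 ratio to 2iJ of −0.69 (interval −0.93 to −0.44). Col3a1, the chain of type III collagen, had 1 count in TSCs and 149 in 2iJ, 152-fold (interval 26.9 to 6057) lower.

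Type V collagen showed a split between its chains. Col5a1 was 26.6 CPM in 2i−L, 30.4 with 2iJ, 62.0 with 2iJ+B−A and 16.3 in TSCs, and Col5a2 was 6.40 CPM in 2i−L, 13.9 with 2iJ, 11.7 with 2iJ+B−A and 0.0285 in TSCs. Col5a1 was highest in 2iJ+B−A, with a log2 ratio to 2iJ of 1.02 (interval 0.91 to 1.12), whereas Col5a2 did not follow it (−0.25) and was higher in 2iJ than in 2i−L, by 1.06 (interval 0.84 to 1.29). In TSCs, Col5a2 had 1 count, 489-fold (interval 87.3 to 19342) below 2iJ, while Col5a1 was still measured and Col5a3 was higher than in 2iJ, at 5.75 CPM compared with 1.89. Col11a1 and Col2a1, chains found in cartilage fibers, were 9.95 CPM in 2i−L, 18.4 with 2iJ, 8.68 with 2iJ+B−A and 12.7 in TSCs for Col11a1 and 5.50 CPM in 2i−L, 11.6 with 2iJ, 13.5 with 2iJ+B−A and 7.83 in TSCs for Col2a1. Col11a1 was highest in 2iJ and passed the 2-fold mark in 2iJ+B−A (−1.04, interval −1.23 to −0.86), although not when libraries were scaled by their totals alone. Col2a1 was above the mark in 2iJ against 2i−L by the smallest margin of the 5 (1.01, interval 0.77 to 1.25) and dropped under it with unstranded counts.

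Among the collagens that attach to fibrils, Col9a2, a chain of type IX collagen, stood out by its level. It was 35.5 CPM in 2i−L, 32.3 with 2iJ, 9.40 with 2iJ+B−A and 1.62 in TSCs, lower in each sample than in the one before it, with log2 ratios of −1.73 (interval −1.90 to −1.56) for 2iJ+B−A over 2iJ and −3.95 (interval −4.26 to −3.64) for TSCs to 2iJ. The other type IX chains differed from it. Col9a1 was between 0 and 2.56 CPM with 0 counts in TSCs, and Col9a3 between 0.722 and 3.3 CPM, highest in TSCs, with 46.4% of its reads in the 4 samples on the opposite strand, where Tcfl5 overlaps it. Col12a1, found on type I fibrils, was 4.09 CPM in 2i−L, 8.10 with 2iJ, 13.1 with 2iJ+B−A and 0.114 in TSCs. It was highest in 2iJ+B−A and lowest in TSCs, where it had 4 counts.

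Col8a1, a short-chain collagen of endothelial matrices, was 1.92 CPM in 2i−L, 5.27 with 2iJ, 0.399 with 2iJ+B−A and 0.0570 in TSCs. It was highest in 2iJ and counted as higher there than in 2i−L (1.25, interval 0.90 to 1.60) and as lower in 2iJ+B−A than in 2iJ (−2.68, interval −3.04 to −2.27). Type VI collagen, which forms beaded filaments, was low throughout, at 0.455 to 1.75 CPM per kb in sum. Col6a1 and Col6a2, its core chains, were highest in TSCs, at 3.02 and 8.46 CPM, whereas Col6a3, the chain they assemble with, stayed under 1 CPM in every sample. Col6a5 had 3.61 CPM in 2iJ, 0.719 in 2iJ+B−A and 0 counts in TSCs. The 4 membrane-spanning collagens Col13a1, Col17a1, Col23a1 and Col25a1 did not exceed 3.11 CPM in any sample. Col23a1 and Col25a1 were higher in TSCs than in 2iJ, and Col13a1 was lower. Of the collagens not yet described, Col11a2, a further cartilage fiber chain, was 0.992 CPM in 2i−L, 0.757 with 2iJ, 0.745 with 2iJ+B−A and 6.78 in TSCs, and Col20a1 was 2.41 CPM in 2i−L, 1.95 with 2iJ, 3.14 with 2iJ+B−A and 8.77 in TSCs. Both were higher in TSCs than in 2iJ, by 2.53 (interval 2.14 to 2.91) and 1.92 (interval 1.60 to 2.24). Col16a1 was also higher there (1.24, interval 0.89 to 1.59), and Col6a4 was lower (−1.22, interval −1.63 to −0.72).

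The highest laminin gene per length was Lamc1 in the 3 mESC samples and Lama5 in TSCs, while Lama5 led the alpha, Lamb1 the beta and Lamc1 the gamma chains in all 4. Lama5 encodes the α5 chain, found in laminins that are widely used to culture pluripotent cells, and Lama1 the α1 chain, found in early embryonic basement membranes. Lama5 was 152 CPM in 2i−L, 245 with 2iJ, 357 with 2iJ+B−A and 639.8 in TSCs, and Lama1 was 40.8 CPM in 2i−L, 39.2 with 2iJ, 52.4 with 2iJ+B−A and 2.62 in TSCs. Lama5 was higher in each sample of that order, and no step between the mESC samples reached 2-fold, with log2 ratios of 0.69 (interval 0.64 to 0.74) for 2iJ to 2i−L and 0.55 (interval 0.51 to 0.59) for 2iJ+B−A over 2iJ. Lama1 was highest in 2iJ+B−A and lowest in TSCs, with a log2 ratio of TSCs to 2iJ of −3.67 (interval −3.94 to −3.41). Per kb, Lama5 exceeded Lama1 3.10 times in 2i−L, 5.21 times with 2iJ, 5.70 times with 2iJ+B−A and 204 times in TSCs (interval 166 to 253). Lama3, an alpha chain of epithelial laminins, was 10.4 CPM in 2i−L, 12.4 with 2iJ, 5.22 with 2iJ+B−A and 1.65 in TSCs, and was lower in 2iJ+B−A than in 2iJ (−1.18, interval −1.41 to −0.95).

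The Lama5 gene lies on chromosome 2. The 250 bases before its RefSeq start are shown because Lama5 was higher in each successive sample. The sequence comes from the RefSeq promoter table (GRCm38.p6), in which 59 of the 81 genes had an entry, and was found once in NCBIM37, at chr2:179960565-179960814 on the minus strand. It overlapped no annotated exon. Capitals mark matches on either strand to 4 motifs, GGGCGG (the GC box bound by Sp1 and its relatives), GGCGCC (a GC-rich element known from BMP-responsive enhancers), CCAAT and TATAAA, and no matches overlapped.
Lama5: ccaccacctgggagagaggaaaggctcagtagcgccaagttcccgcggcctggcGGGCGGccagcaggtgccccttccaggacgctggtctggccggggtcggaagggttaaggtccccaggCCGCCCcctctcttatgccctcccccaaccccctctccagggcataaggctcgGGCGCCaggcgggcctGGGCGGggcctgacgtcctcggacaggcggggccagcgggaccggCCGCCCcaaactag
This window held 4 GGGCGG matches and 1 GGCGCC match, and 72.4% of its bases were G or C. Of all 32851 upstream windows in the table, 32.7% held GGGCGG, 9.59% GGCGCC, 33.8% CCAAT and 12.4% TATAAA. Among the 65 windows of the members, the shares were 47.7%, 10.8%, 26.2% and 7.69%. These matches describe letters in a window and identify no bound site.

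Lama4, the alpha chain of vessel walls, was 1.02 CPM in 2i−L, 1.43 with 2iJ, 1.46 with 2iJ+B−A and 1.08 in TSCs, and its log2 ratio of TSCs to 2iJ was −0.28 (interval −0.73 to 0.17). Lamb1 and Lamc1 went opposite ways. Lamb1, the β1 chain, was 84.2 CPM in 2i−L, 116 with 2iJ, 143 with 2iJ+B−A and 292 in TSCs, and Lamc1, the γ1 chain shared by most laminins, was 549 CPM in 2i−L, 479.9 with 2iJ, 367 with 2iJ+B−A and 179.8 in TSCs. Lamb1 was higher in each successive sample and Lamc1 lower in each. The log2 ratios of TSCs to 2iJ were 1.32 (interval 1.27 to 1.38) for Lamb1 and −1.41 (interval −1.46 to −1.37) for Lamc1. Per kb, Lamc1 exceeded Lamb1 7.81 times in 2i−L, 4.95 times with 2iJ and 3.07 times with 2iJ+B−A, while in TSCs it stood at 0.739 times Lamb1. In 2i−L, Lamc1 was the highest of all 81 genes per length. Lamb2, the β2 chain, was 32.1 CPM in 2i−L, 36.1 with 2iJ, 32.0 with 2iJ+B−A and 112 in TSCs, higher in TSCs only, and Lamb3, the β3 chain, was at most 2.61 CPM. Lamb3 had a log2 ratio of TSCs to 2iJ of −0.95 (interval −1.38 to −0.50), in the direction of Lamc1. Lama5, Lamb1 and Lamc1, the chains of α5β1γ1 laminin, were within 2.58 times of each other per kb in TSCs, compared with 7.81 times in 2i−L.

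Of the 3 laminin-binding integrin chains, 3 were higher in TSCs than in 2iJ (all genes, 19.4%) and 2 were higher in TSCs than in 2iJ+B−A (all genes, 16.4%), where Itga6 was below the mark (0.78). Itga6, the α6 chain that pairs with β1 or β4, was 122 CPM in 2i−L, 103 with 2iJ, 154 with 2iJ+B−A and 264 in TSCs, and Itga3, the α3 chain, was 37.6 CPM in 2i−L, 29.3 with 2iJ, 69.5 with 2iJ+B−A and 155 in TSCs. Itga3 was lowest in 2iJ, and its log2 ratio for 2iJ+B−A over 2iJ was 1.23 (interval 1.13 to 1.34). It was below the 2-fold mark when 2i−L served as the reference. Itga6 shared the order of the samples but stayed under the mark in 2iJ+B−A (0.58, interval 0.52 to 0.64). Itga7, the α7 chain best known from muscle, was 1.62 CPM in 2i−L, 0.932 with 2iJ, 1.57 with 2iJ+B−A and 89.2 in TSCs. It was near the 1 CPM limit in the 3 mESC samples and 95.8-fold (interval 67.7 to 140.3) higher in TSCs than in 2iJ, the largest log2 ratio in size of any member, 5.97 (interval 5.62 to 6.31). Per kb, Itga7 stood at 0.0193 to 0.0283 times Itga6 in mESCs and at 0.716 times in TSCs. These values depend on the length taken, which scales all samples alike. Itga6 had 9025 joined bases and 4310 in its longest coding transcript, and Itga7 had 4258 by either measure.

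Receptors for fibronectin and vitronectin, which recognize the RGD motif, differed among themselves. Itga5, the α5 chain of the main fibronectin receptor, was 72.7 CPM in 2i−L, 48.7 with 2iJ, 57.4 with 2iJ+B−A and 84.5 in TSCs, and Itgav, the αv chain, was 53.6 CPM in 2i−L, 59.9 with 2iJ, 31.5 with 2iJ+B−A and 186 in TSCs. Itga5 varied least of the 2, with log2 ratios no larger than 0.79 in size in the 4 comparisons. Itgav was lowest in 2iJ+B−A, with a log2 ratio to 2iJ of −0.92 (interval −1.02 to −0.81), and highest in TSCs, 2.54 (interval 2.45 to 2.63) above 2iJ+B−A. Per kb, Itga5 exceeded Itgav 3.33 times in 2i−L, 1.99 times with 2iJ, 4.47 times with 2iJ+B−A and 1.12 times in TSCs. Their order in TSCs depends on the length taken. Joined exons came to 10744 bases for Itgav, and its longest coding transcript had 7054. Itga2b, the platelet αIIb chain, was 1.53 CPM in 2i−L, 1.05 with 2iJ, 1.57 with 2iJ+B−A and 9.34 in TSCs. The collagen-binding Itga1 was 1.23 CPM in 2i−L, 3.49 with 2iJ, 4.21 with 2iJ+B−A and 29.0 in TSCs, the only integrin counted as higher in 2iJ than in 2i−L (1.20, interval 0.80 to 1.60), and its relatives Itga2 and Itga11 stayed under 1 CPM.

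The beta chains were led by Itgb1, the partner of most of these alpha chains. It was 237 CPM in 2i−L, 241 with 2iJ, 309 with 2iJ+B−A and 469 in TSCs, and was the highest of all 81 genes per length in 2iJ+B−A. Its log2 ratio of TSCs to 2iJ, 0.96 (interval 0.92 to 1.00), lay just under the 2-fold mark and reached it when libraries were scaled by their totals. Itgb5, an αv partner that binds vitronectin, was 42.2 CPM in 2i−L, 52.5 with 2iJ, 55.3 with 2iJ+B−A and 245 in TSCs, with a log2 ratio of TSCs to 2iJ of 2.21 (interval 2.14 to 2.28). It was nearly level among mESCs and stood apart in TSCs, where it amounted to 0.633 times Itgb1 per kb, compared with 0.216 to 0.264 times in mESCs. Itgb3, a further αv partner, was 8.75 CPM in 2i−L, 13.6 with 2iJ, 15.0 with 2iJ+B−A and 31.2 in TSCs. Itgb4, the β4 chain of hemidesmosomes, was 4.15 CPM in 2i−L, 4.31 with 2iJ, 3.62 with 2iJ+B−A and 8.09 in TSCs, and its log2 ratio of TSCs to 2iJ was 0.84 (interval 0.57 to 1.11).

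**Figure D3:**
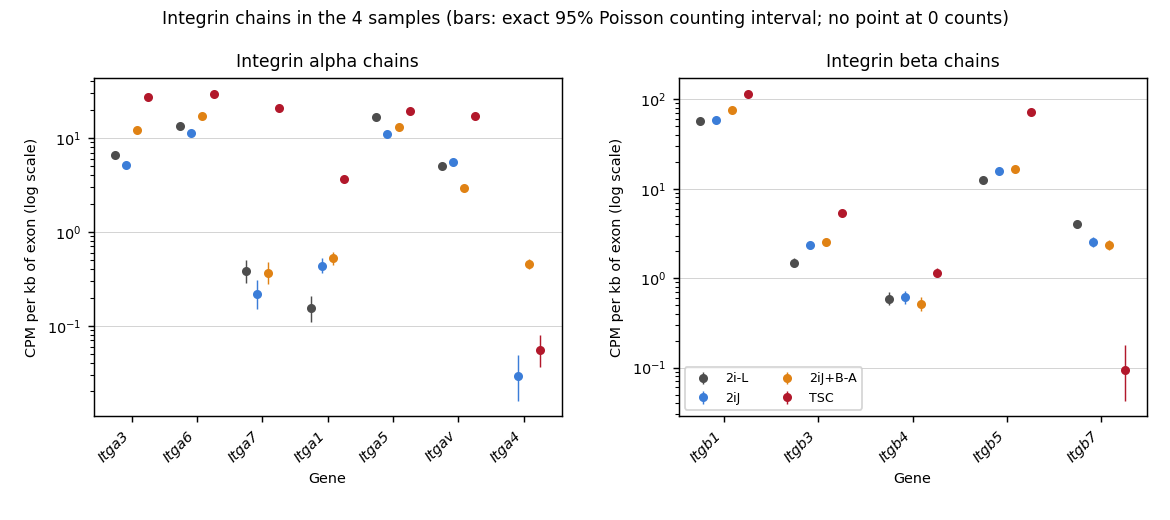
Level per kb of exon (log scale) of integrin alpha chains (left) and beta chains (right) in the 4 samples, with exact 95% Poisson intervals. Itga7 and Itgb5 set TSCs apart, Itga4 is highest in 2iJ+B−A and has no point in 2i−L, where it had 0 counts, and Itgb7 is lowest in TSCs.

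Itga4, the α4 chain that binds fibronectin and VCAM1, was the member whose log2 ratio was greatest in size for 2iJ+B−A over 2iJ. It had 0 counts in 2i−L, 14 with 2iJ, 240 with 2iJ+B−A and 27 in TSCs, which is 0 CPM in 2i−L, 0.408 with 2iJ, 6.39 with 2iJ+B−A and 0.769 in TSCs. Only 2iJ+B−A had more than 27 counts, and its log2 ratio to 2iJ was 2.92 (interval 2.50 to 3.28). Its log2 ratio of TSCs to 2iJ+B−A was −2.44 (interval −2.81 to −2.05). Reads on the opposite strand, where Cerkl overlaps its exons by 1124 bases, numbered 29, 63, 61 and 13 in 2i−L, 2iJ, 2iJ+B−A and TSCs. With unstranded counts, the log2 ratio for 2iJ+B−A over 2iJ was 1.69, and that of TSCs to 2iJ turned from 0.48 to −0.74. Itga4 pairs with Itgb7 on white blood cells. Itgal, Itgam, Itgb2, Itgb7 and Itgae, further chains of the lymphocyte and myeloid integrins, did not exceed 11.1 CPM, and all 5 were lower in TSCs than in 2iJ, although Itgae was not with unstranded counts, nor Itgb2 against 2i−L. Itgb7 was 11.1 CPM in 2i−L, 7.05 with 2iJ, 6.39 with 2iJ+B−A and 0.256 in TSCs. Of 10 leukocyte markers, Ptprc had 0 counts in all 4 samples. At 1 CPM or more were 4 of them in 2i−L, 4 with 2iJ, 2 with 2iJ+B−A and 4 in TSCs. Of the 5 compared, Csf1r was higher and Cd3e and Laptm5 lower in TSCs than in 2iJ (all genes, 19.4% higher and 17.6% lower).

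The 250 bases before the starts of Itgb5 and Itga4 are shown beside that of Lama5 as the integrins that set TSCs and 2iJ+B−A apart. Both lie on plus strands, were each found once in NCBIM37, at chr16:33829501-33829750 and chr2:79095333-79095582, and overlapped no annotated exon. Capitals mark matches to the same 4 motifs.
Itgb5: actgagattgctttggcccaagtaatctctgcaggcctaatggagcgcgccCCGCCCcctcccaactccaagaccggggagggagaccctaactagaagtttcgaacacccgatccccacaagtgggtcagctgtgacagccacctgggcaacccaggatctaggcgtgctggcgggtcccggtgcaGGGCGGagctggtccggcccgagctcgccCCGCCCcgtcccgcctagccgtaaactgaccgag
Itga4: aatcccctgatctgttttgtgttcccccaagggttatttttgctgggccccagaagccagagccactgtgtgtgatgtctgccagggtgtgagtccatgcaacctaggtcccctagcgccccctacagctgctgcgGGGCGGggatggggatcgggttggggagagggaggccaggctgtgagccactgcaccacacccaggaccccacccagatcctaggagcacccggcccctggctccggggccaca
The Itgb5 window held 3 GGGCGG matches and the Itga4 window 1, and the remaining 3 motifs had no match in either.

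The makeup of the whole set shifted accordingly. Summed per kb, the 81 genes came to 320.2 CPM per kb in 2i−L, 358 with 2iJ, 377 with 2iJ+B−A and 727 in TSCs. Type IV collagens made up 5.36% of this sum in 2i−L, 6.19% with 2iJ, 15.5% with 2iJ+B−A and 33.9% in TSCs. Laminin gamma chains made up 22.5%, 17.6%, 13.3% and 3.59%. The class holding Col18a1 had 15.6%, 22.8%, 10.9% and 2.52%. Integrin beta chains were steadier, with 24.0%, 22.5%, 26.0% and 26.7%, and laminin-binding alpha chains were 6.38%, 4.67%, 7.85% and 10.6%. Shares in one sample depend on each other, so a larger share of type IV collagen lowers the others.

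**Figure D4:**
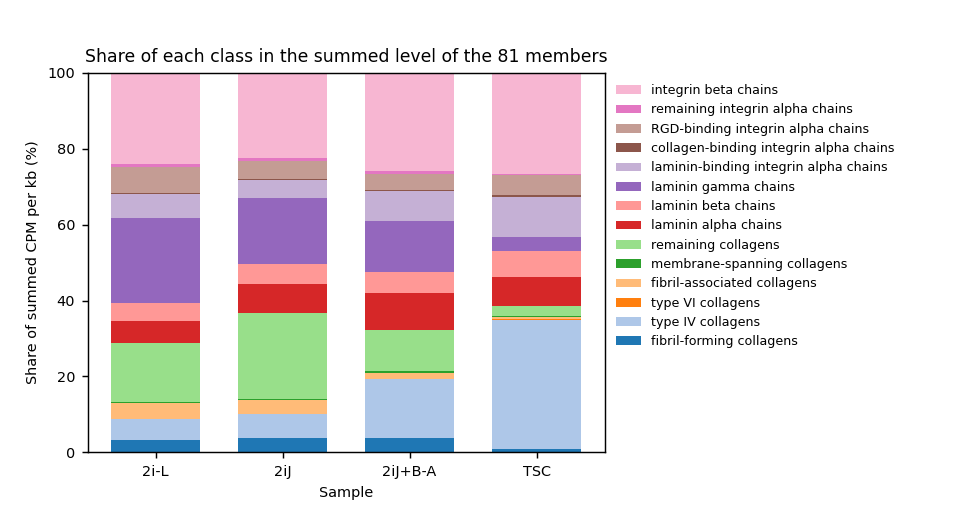
Stacked bars of the share of each of 14 classes in the summed CPM per kb of the 81 genes, 1 bar per sample, with shares adding to 100%. Type IV collagen grows from 5.36% in 2i−L to 33.9% in TSCs, while laminin gamma chains shrink from 22.5% to 3.59%.

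Ordered by level, 15 of the 61 compared genes were higher at each step from 2i−L to 2iJ, 2iJ+B−A and TSCs, namely Col4a1, Col4a2, Col5a3, Col6a1, Col9a3, Col16a1, Col22a1, Col25a1, Lama5, Lamb1, Itga1, Itga9, Itgb1, Itgb3 and Itgb5. That is 24.6% of them, beside 12.9% of all compared genes. Another 8, or 13.1% beside 12.4%, were lower at each step, namely Col1a1, Col1a2, Col9a2, Col17a1, Lamc1, Itgae, Itgal and Itgb7. The steps among mESCs were often under the counting error, for example Itgb5 from 2iJ to 2iJ+B−A (0.07, interval −0.02 to 0.16). The 15 compared members past the mark in neither 2iJ+B−A nor TSCs against 2iJ included Col2a1, Col7a1, Col8a2, Col17a1, Col22a1, Col27a1, Lama4, Lamb3, Itga5, Itga8, Itga9, Itga10, Itgb1 and Itgb4. The highest level was in TSCs for 29 members (47.5%, beside 41.4% of all compared genes), in 2iJ for 12 (19.7%, beside 17.2%), and in 2i−L and 2iJ+B−A for 10 each (16.4%, beside 22.1% and 19.3%). The lowest was in TSCs for 25 (41.0%, beside 41.4%) and in 2i−L for 23 (37.7%, beside 22.7%).

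Genes that process collagen were found on both sides. Of 27 compared, 4 were higher and 4 lower in 2iJ+B−A than in 2iJ, and 9 were higher and 6 lower in TSCs than in 2iJ, beside 5.81% and 3.17%, and 19.4% and 17.6%, of all genes. Bmp1, the protease that trims procollagen ends, was 5.02 CPM in 2i−L, 4.75 with 2iJ, 10.99 with 2iJ+B−A and 237 in TSCs, and Pxdn, the peroxidase that cross-links type IV collagen, was 12.1 CPM in 2i−L, 22.9 with 2iJ, 51.6 with 2iJ+B−A and 124 in TSCs. Both were higher in 2iJ+B−A than in 2iJ (1.13, interval 0.89 to 1.38, and 1.16, interval 1.04 to 1.28). P4ha1, a collagen prolyl hydroxylase, was 88.8 CPM in 2i−L, 60.1 with 2iJ, 23.1 with 2iJ+B−A and 65.7 in TSCs, lowest in 2iJ+B−A. Adamts14, a procollagen protease, and Pcolce2, an enhancer of Bmp1 cleavage, were also lower in 2iJ+B−A than in 2iJ, with log2 ratios of −1.78 and −1.76.

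Of 27 other matrix genes compared, 6 were higher and 13 lower in TSCs than in 2iJ (all genes, 19.4% and 17.6%), while 3 were higher and 2 lower in 2iJ+B−A than in 2iJ (all genes, 5.81% and 3.17%). Higher in 2iJ+B−A than in 2iJ were Smoc2 (3.00), a matricellular protein, Tinagl1 (1.65), a basement membrane protein that was also higher in TSCs than in 2iJ (5.20), and the fibrillin Fbn1 (1.02), which is also among the fibroblast markers below. Lower were the proteoglycan Vcan (−1.70) and the fibrillin Fbn2 (−1.30). The ligand of the α5β1 receptor, Fn1, was 2212 CPM in 2i−L, 2273 with 2iJ, 1319.7 with 2iJ+B−A and 67.9 in TSCs, with a log2 ratio of TSCs to 2iJ of −5.05. It was named after its values were seen, as the main ligand of Itga5.

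Adhesion complex genes, which link integrins to actin, had 31 members compared, 4 higher and 0 lower in 2iJ+B−A than in 2iJ, and 13 higher and 3 lower in TSCs than in 2iJ, with the same shares over all genes. Parvb and Parva, the parvins that bind integrin-linked kinase, had log2 ratios for 2iJ+B−A over 2iJ of 1.81 (interval 1.67 to 1.95) and 1.49 (interval 1.34 to 1.64), and Zyx, the actin-binding zyxin, one of 1.54 (interval 1.42 to 1.66). In TSCs against 2iJ, the values were 2.04, 3.17 and 2.18. The median log2 ratio over the list was 0.37 in 2iJ+B−A and 0.90 in TSCs, beside 0.00 over all genes. Among 10 other receptors for collagen and laminin, 3 were higher and 0 lower in 2iJ+B−A than in 2iJ (all genes, 5.81% and 3.17%). The higher ones were Cd44 (1.55), a hyaluronan receptor that also binds collagen, the syndecan Sdc3 (1.31) and the collagen receptor kinase Ddr2. Ddr2 was 33.4 CPM in 2i−L, 40.7 with 2iJ, 93.7 with 2iJ+B−A and 0.0570 in TSCs, highest in 2iJ+B−A and at 2 counts in TSCs.

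Proteases that cut matrix and their inhibitors had 27 members compared, 4 higher and 3 lower in 2iJ+B−A than in 2iJ and 11 higher and 4 lower in TSCs than in 2iJ (all genes, 5.81% and 3.17%, and 19.4% and 17.6%). Timp3 and Timp2, inhibitors of metalloproteases, and Plau, the urokinase gene, were higher in 2iJ+B−A, with log2 ratios of 1.90, 1.02 and 1.75. Adam19 had a log2 ratio for 2iJ+B−A over 2iJ of −1.02.

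Marker genes of other cell types were measured beside these results. TSC markers, 10 genes, summed to 386 CPM in 2i−L, 447 with 2iJ, 1442 with 2iJ+B−A and 3866 in TSCs. In 2iJ+B−A, 6 of these 10 were higher than in 2iJ and 1, Eomes, was lower at −1.78 (all genes, 5.81% and 3.17%). In TSCs, 10 were higher and 0 lower than in 2iJ (all genes, 19.4% and 17.6%). Among the endoderm markers, Lrp2 alone was 45.7 CPM in 2i−L, 115 with 2iJ, 174 with 2iJ+B−A and 3.05 in TSCs. Their Ttr had 0 counts in all 4 samples and Afp at most 0.0582 CPM, whereas Gata6 and Sox17 were higher in 2iJ+B−A than in 2iJ. Among the fibroblast markers, Acta2 was 51.7 CPM in 2i−L, 141 with 2iJ, 259 with 2iJ+B−A and 0.0285 in TSCs, and Dcn, Lum and Fap were at most 0.612 CPM. Endothelial markers, 8 genes, summed to 139, 146, 111 and 78.2 CPM with Emcn at 0 in all samples, and leukocyte markers, 10 genes, to 35.3, 22.0, 22.4 and 21.9 CPM. Of 6 endothelial markers compared, 2 were higher (Cdh5 and Kdr) and 2 lower (Pecam1 and Tek) in TSCs than in 2iJ (all genes, 19.4% and 17.6%). The study's model lists Pecam1 as a pluripotency marker. Pluripotency markers, 10 genes, summed to 6186, 5184, 3491 and 975 CPM, 10 markers of differentiated trophoblast to 5.11, 10.1, 157 and 404 CPM, and 9 of mesoderm, of which Eomes and Hand1 also stand in the trophoblast lists, to 18.8, 16.2, 112 and 568 CPM. The mesoderm markers did not move together. Of 4 compared, 2 were higher (Foxf1a and Hand1) and 2 lower (Eomes and T) in 2iJ+B−A than in 2iJ (all genes, 5.81% and 3.17%).

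Counts of a few members are less certain. STAR counts only pairs that map to 1 place. At 90% identity or more, over 10% of the transcript matched elsewhere in NCBIM37 for 2 of the 81 genes, Itgb2 with 22.7% and Itgb5 with 11.3%. Itga10 was at most 1.17 CPM. Opposite-strand counts made up over 10% of both strands for 5 compared members, Itga4, Itgae, Itgb4, Col9a3 and Col13a1.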

How the data were processed

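Per the labels and the study's methods, stranded poly-A libraries were read as 126-base pairs, converted with CASAVA 1.8.2, trimmed with cutadapt (Phred 20) and aligned to NCBIM37 with STAR 2.4.2a. The annotation release is not given in the sources used here. The authors deposited counts per gene for each sample, with unstranded and per-strand columns, and the reverse-strand counts were used, since they exceeded the other strand 29.1 to 32.1 times. Multimapping pairs, 6.72% to 7.01%, are not counted. Identifiers were paired with symbols by the GENCODE annotation of NCBIM37 for 37205 of 37620. Counts were scaled with TMM factors (edgeR 4.0.16, 0.969 to 1.035) to CPM, and genes with 1 CPM in at least 1 sample were compared at a pseudocount of 0.5 CPM. Intervals used scipy 1.17.1. DESeq2 1.42.0 size factors were an alternative. Transcripts were matched to the genome with minimap2 2.31. Scripts were tested on simulated data. The 81 members and the gene lists were chosen with earlier results of these data known. Members were named with values if past the 2-fold mark in either mESC comparison at 5 CPM, among the 10 largest ratios of TSCs to 2iJ, among the 6 highest per kb in a sample, or among core chains, and further members were named after their values were seen. From each pathway list, up to 3 genes in each direction in 2iJ+B−A against 2iJ were named. Some items that these rules would name are not reported here.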

Additional observations from a re-analysis of the deposited data

Results flagged for a closer look

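Reads on the strand opposite to Itgb4, which could enter the comparisons only through the unstranded counts, numbered 46 in TSCs. This was 1.31 CPM, compared with 0.210 in 2i−L and 0.379 in 2iJ, a log2 ratio of 1.35 and 1.04, and it made up 13.9% of the reads on both strands of the gene. It was not confined to TSCs, since 2iJ+B−A had 18 such reads beside 136 on the gene's own strand, compared with 46 beside 284 in TSCs. B230344G16Rik, which overlaps Itgb4 by 537 bases on that strand, had 18 counts in TSCs, 7 in 2iJ+B−A, 4 in 2iJ and 0 in 2i−L. The part of B230344G16Rik in the signal was not tested.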

How the results depend on the processing

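Each condition had 1 sample, so the spread between cultures is unknown, the intervals cover counting error only, and a 2-fold mark is a convention. Counts of members past the mark changed by over 1.5 times under these settings. For 2iJ against 2i−L, the 5 higher members became 0 when the nearer interval bound had to reach a log2 ratio of 1, 0 at a log2 ratio of 1.5, 9 with a pseudocount of 0.1 CPM and 3 with 1 CPM. For 2iJ+B−A against 2iJ, the 5 higher members became 10 with 2i−L as the reference and 2 at a log2 ratio of 1.5. At a log2 ratio of 1.5, the higher members in TSCs became 14 against 2iJ and 12 against 2iJ+B−A. The other counts stayed within 1.5 times. No share over all genes is given at these settings, so the changes describe the calls only. Ratios of named members kept within counting error in 108 of 108 cases with DESeq2 size factors, and they differed by more in 15 with library totals, 16 with a pseudocount of 0.1 CPM, 13 with 1 CPM, 4 with unstranded counts and 41 of 54 with 2i−L as the reference. No scaling moved the median of all genes by more than 0.076 on the log2 scale. No paired analysis was possible because each group has 1 sample. Members under 3 counts in a sample are limited by depth.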
